A study of Mus musculus with 6 samples.

Results

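Fetal liver of the mouse was read here for 7 mature miRNAs that are known from muscle and nervous tissue. They are 4 muscle miRNAs (mmu-miR-1a-3p, mmu-miR-133a-3p, mmu-miR-133b-3p and mmu-miR-206-3p) and 3 neural miRNAs (mmu-miR-9-5p, mmu-miR-9-3p and mmu-miR-124-3p), written below without the species prefix. They were chosen by name, with their values in these libraries already in view, and all 7 were present among the 1626 mature miRNAs of the deposited table. The 6 libraries came from fetal liver of C57BL/6J embryos: wild-type (WT) libraries 1 to 3 and libraries 4 to 6 from embryos homozygous for a deletion of the miR-144/451 locus (miR-144/451-/-, here KO). Per the labels each library was made from total RNA of the same number of fetal liver cells; embryonic age, sex and the number of embryos behind each library are not given in the labels. The labels speak of replicates without saying that they came from separate embryos, so the spread between libraries may be partly technical.

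A miRNA is a short RNA that guides Argonaute to messenger RNAs through its seed, bases 2 to 8 from its 5′ end. miR-1, miR-133 and miR-206 are known as the myomiRs: miR-1 and miR-133 are made from shared transcripts in heart and skeletal muscle, and miR-206 and miR-133b from a transcript of skeletal muscle and its precursors. miR-9 is a miRNA of neural progenitors and neurons, and miR-124 is the best known miRNA of differentiated neurons. None of the 7 is a defining miRNA of erythroid cells or hepatocytes, the main cells of fetal liver.

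RefSeq's mature sequences (GRCm38.p6) were found for 4 of the 7 members. They are shown with the seed in capitals, because the seed and the near-identity of some family members set what the counts can separate.
miR-206-3p: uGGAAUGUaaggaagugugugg
miR-133b-3p: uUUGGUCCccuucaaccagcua
miR-9-5p: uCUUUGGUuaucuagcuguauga
miR-9-3p: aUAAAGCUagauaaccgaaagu
The 4 seeds differ, so the muscle and the neural members printed here fall into no common seed group. The other members, miR-1a-3p, miR-133a-3p and miR-124-3p, are given by name.

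In GRCm38, Mir206 (chr1:20679010-20679082, plus strand) and Mir133b (chr1:20682769-20682887, plus strand) lie 3686 bases apart. Both overlap exons of the same lincRNA, Gm28653, in GENCODE M21. miR-9-5p and miR-9-3p are the opposite arms of 3 hairpins whose mature sequences are identical. Mir9-1 (chr3:88215598-88215686) lies in an intron of the lincRNA Gm3764, Mir9-2 (chr13:83738814-83738885) in an exon of C130071C03Rik and Mir9-3 (chr7:79505264-79505353) in an intron of Mir9-3hg, all on the plus strand. The counts therefore cannot say which of the 3 miR-9 hairpins was used.

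Each library held 16243894 to 27089133 miRNA counts, and 1258 to 1345 miRNAs had at least 1 count. The genotype labels matched the deleted locus in all 6 libraries: miR-451a had 3689919 to 4249816 counts in the WT libraries and 2874 to 4645 in the KO libraries. A count of 0 allows up to 0.111 to 0.185 counts per 1000000 counts of a library (3 counts as the limit), and this limit and all intervals cover counting error only. Levels are counts per 1000000 after TMM scaling (CPM), a scaling that sets the typical miRNA equal between libraries. WT library 1 stood apart from the other 5 in the members, so results that rest on it are given with and without it.

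The skeletal muscle miRNA miR-206-3p was high in WT library 1, intermediate in KO library 4 and low in the other 4. WT libraries 1 to 3 gave 203.8, 10.9 and 7.66 CPM, from 3729, 262 and 153 counts. KO libraries 4 to 6 gave 41.8, 7.35 and 6.97 CPM, from 828 counts in KO library 4 and at most 182 in KO libraries 5 and 6. WT library 1 lay 26.6 times above the median of the other 5 and 4.88 times above KO library 4. The 2 genotypes overlapped: KO library 4 was above WT libraries 2 and 3. In bulk RNA, more cells that express a miRNA and more of it per cell cannot be told apart.

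miR-1a-3p, the miRNA of heart and skeletal muscle that shares its seed with miR-206, followed the same order at the top. WT libraries 1 to 3 gave 174.2, 8.95 and 6.06 CPM and KO libraries 4 to 6 gave 37.3, 5.41 and 5.63 CPM. WT library 1 and KO library 4 were again above the other 4, and the genotypes overlapped. Its counts were close to those of miR-206-3p everywhere: the ratio of miR-206-3p to miR-1a-3p stayed between 1.12 and 1.36. How reads that match both were counted was not given in the sources used here, so the pair may not be fully separate signals.

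miR-133a-3p and miR-133b-3p, myomiRs that act in muscle proliferation and differentiation, were lower and had the same shape. For miR-133b-3p the WT libraries gave 22.5, 0.663 and 0.701 CPM and the KO libraries 4.39, 0.663 and 0.690 CPM, in the order 1 to 6. The 4 low libraries rested on 12 to 18 counts each, against 411 in WT library 1 and 87 in KO library 4. The counts of miR-133a-3p equalled those of miR-133b-3p in 5 libraries and were 410 against 411 in WT library 1, so the pair is 1 measured signal, and the 4 muscle names hold at most 3 separate ones. The ratio of miR-206-3p to miR-133b-3p was 9.07 to 16.4. The highest, in WT library 2, rested on 16 counts of miR-133b-3p (exact 95% interval 9.90 to 29.1).

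The neural miR-9-5p, the most abundant of the 7 on average, was also highest in WT library 1 but had another order behind it. In WT libraries 1 to 3 it was read at 424.0, 18.6 and 69.7 CPM, against 32.3, 16.3 and 93.5 CPM in KO libraries 4 to 6. KO library 6 and WT library 3 came next, ahead of KO library 4, which was next for the muscle miRNAs. The genotypes overlapped. Its partner arm miR-9-3p gave 76.7, 4.35 and 17.1 CPM in the WT libraries, against 8.37, 3.87 and 19.2 CPM in KO, the same order of libraries. The ratio of miR-9-5p to miR-9-3p was 5.53 in WT library 1 (exact 95% interval 5.22 to 5.85) and 3.86 to 4.87 in the others.

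miR-124-3p was a low signal outside WT library 1. It had 143, 13 and 12 counts in WT libraries 1 to 3 and 6, 5 and 28 counts in KO libraries 4 to 6. As levels these are 7.81, 0.539 and 0.601 CPM for WT, against 0.303, 0.276 and 1.07 CPM for KO. The genotypes overlapped, and WT library 1 was 7.28 times above the next, KO library 6. Apart from WT library 1 and KO library 6, the exact 95% counting intervals of the libraries overlapped, from a lowest bound of 0.0897 to a highest of 1.05 CPM. The interval of KO library 6, 0.713 to 1.55 CPM, overlapped those of WT libraries 2 and 3 but not those of KO libraries 4 and 5.

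**Figure D1:**
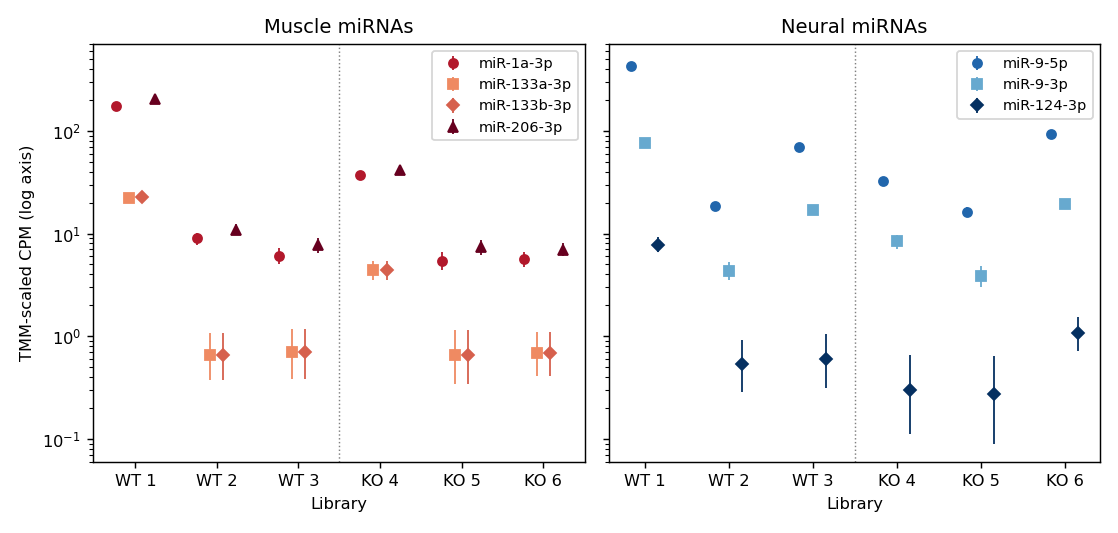
TMM-scaled CPM (log axis) of the 4 muscle miRNAs (left) and the 3 neural miRNAs (right) by library; each point is 1 of the 6 libraries, with its exact 95% counting interval as a bar. WT library 1 is highest in both panels, with miR-206-3p at 203.8 CPM and miR-9-5p at 424.0 CPM; KO library 4 comes next for muscle (41.8 CPM) and KO library 6 for miR-9-5p (93.5 CPM).

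Summed over the list, the 4 muscle members took 373.0 of every 1000000 counts in WT library 1 (exact binomial 95% interval 364.8 to 381.4) and 107.2 in KO library 4 (102.3 to 112.4). This sum adds miR-133a-3p and miR-133b-3p, so it may hold the same reads under both names; with miR-133a-3p left out it was 353.3 and 101.9. In the other 4 libraries the sum of all 4 was 13.2 to 18.8. The 3 neural members took 448.7 in WT library 1, 123.5 in KO library 6 and 76.4 in WT library 3, and 20.9 to 50.0 in the other 3. The members were thus a small part of each library even where they were highest.

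Within the muscle group and within the miR-9 arms, ratios moved little between libraries; between the groups they moved widely. The ratio of miR-9-5p to miR-206-3p was 2.08, 1.71 and 9.10 in WT libraries 1 to 3 and 0.774, 2.23 and 13.4 in KO libraries 4 to 6, a 17.3-fold range. The ratio of miR-206-3p to miR-1a-3p had a 1.21-fold range and that of miR-9-5p to miR-9-3p a 1.43-fold range. Such ratios need no scaling between libraries. The ratio of miR-9-5p to miR-124-3p ran from 34.5 to 116.1, with as few as 5 counts of miR-124-3p behind it.

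**Figure D2:**
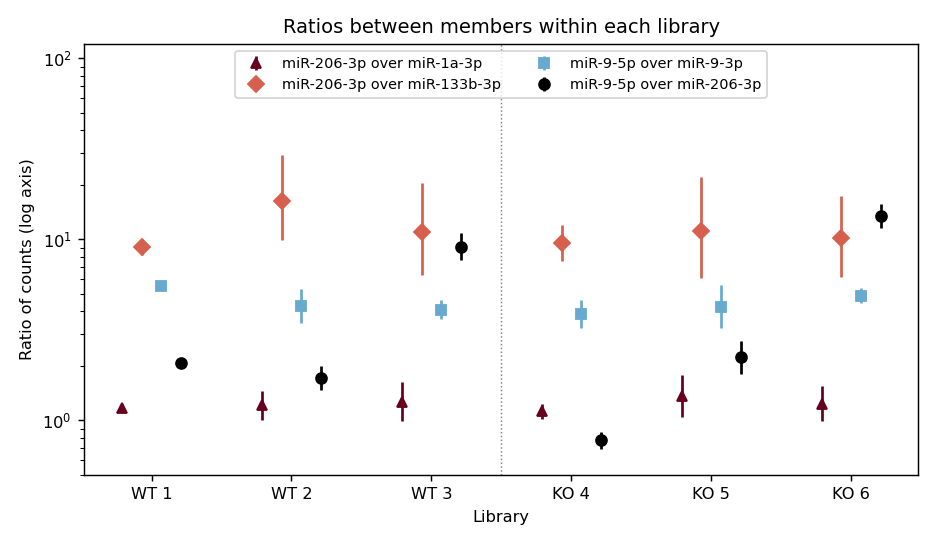
Ratio of counts (log axis) between pairs of members within each of the 6 libraries, with exact 95% intervals as bars. miR-206-3p over miR-1a-3p stays between 1.12 and 1.36, while miR-9-5p over miR-206-3p runs from 0.774 in KO library 4 to 13.4 in KO library 6.

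The comparison of KO with WT asks which miRNAs differ when the miR-144/451 locus is lost. Over all 6 libraries every member had a lower mean in KO, and none was called. The mean of miR-206-3p was 74.1 ± 112.3 CPM for WT, against 18.7 ± 20.0 CPM for KO (SD, n = 3 per genotype), with an SD above the mean in both groups. For miR-9-5p the means were 170.8 ± 220.8 and 47.4 ± 40.7 CPM, and for miR-124-3p 2.98 ± 4.18 and 0.551 ± 0.453 CPM (SD, n = 3 per genotype). The log2 folds of KO over WT ran from -2.36 (miR-124-3p, standard error (SE) 1.17) to -1.64 (miR-9-3p, SE 1.03). They were -1.99 (SE 1.38) for miR-206-3p, -1.97 (SE 1.42) for miR-1a-3p, -2.05 (SE 1.48) for miR-133b-3p and -1.85 (SE 1.14) for miR-9-5p.

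Of the 7 members, 0 were called at an adjusted p under 0.05 in edgeR's quasi-likelihood test (Benjamini-Hochberg adjusted p 0.513 to 0.631), where 0.799% of all 876 tested miRNAs were called. DESeq2 called 0 of the 3 members it gave a p (0.963% of all its miRNAs) and limma-voom 0 of 7 (0.913%). At an unadjusted p under 0.05, edgeR had 0 of the 7, limma-voom 0 and DESeq2 1, miR-124-3p (adjusted p 0.389). Outside the locus, 96 of 873 miRNAs were at that p in edgeR and 102 of 873 in limma-voom. In DESeq2 it was 103 of 1555. In 0 of the 7 did the 3 KO libraries and the 3 WT libraries fail to overlap, against 21.8% of all tested miRNAs. Since the members were chosen with these values known, the counts and p-values describe them and support nothing further.

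By size alone the members were among the lowest folds of the table. A log2 fold at or under -1.5 was seen in 14 of the 876 tested miRNAs (1.6%): the 7 members, the 3 products of the deleted locus and 4 others. Among the 7, miR-133a-3p and miR-133b-3p are 1 measured signal, and miR-9-5p and miR-9-3p are arms of the same hairpins. The 4 others, which were picked out after their values had been seen, were miR-215-5p, miR-205-5p, miR-135b-5p and miR-449a-3p. Of these 11 outside the locus, 10 had their highest level in WT library 1, the exception being miR-449a-3p. Over all 873 tested miRNAs outside the locus, WT library 1 was the highest library for 18.6%, and their median log2 fold was -0.01. A low fold favours miRNAs whose highest library is a WT library, so the count among these 11 was partly set by how they were picked.

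WT library 1 set the sign of the muscle folds. Without it the WT mean of miR-206-3p was 9.26 CPM in place of 74.1 CPM, and the edgeR log2 fold became 1.01 (SE 0.82; adjusted p 0.722). That of miR-1a-3p became 1.10 (SE 0.89) and that of miR-133b-3p 1.47 (SE 0.93), with KO library 4 now the highest. The neural folds went to near 0: 0.11 (SE 0.80) for miR-9-5p, -0.02 (SE 0.76) for miR-9-3p and 0.008 (SE 0.66) for miR-124-3p. edgeR's adjusted p for the 7 without that library was 0.684 to 0.994.

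Without both WT library 1 and KO library 4, an alternative added after seeing the data, the muscle folds were small as well. They were -0.37 (SE 0.32) for miR-206-3p, -0.44 (SE 0.34) for miR-1a-3p and -0.01 (SE 0.46) for miR-133a-3p and miR-133b-3p. The 4 remaining libraries gave WT means of 9.26 and KO means of 7.16 CPM for miR-206-3p. Leaving out KO library 4 alone took miR-206-3p to -3.52 (SE 1.55) and miR-133b-3p to -3.69 (SE 1.73). Leaving out KO library 6 alone took miR-9-5p to -2.86 (SE 1.30) and miR-124-3p to -3.38 (SE 1.47).

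These moves were larger than those of most miRNAs. This follows in part from the choice of members, made with their values known, since WT library 1, KO library 4 and KO library 6 were their high libraries. When WT library 1 was left out, all 7 members moved by at least 1 on the log2 scale, against 20 of the 873 miRNAs outside the locus (2.29%), the 7 included. The sign turned for 6 of the 7 members and for 15.2% of all. Without KO library 4, 4 miRNAs moved by that much (0.458%), and they were the 4 muscle members, among which miR-133a-3p and miR-133b-3p are 1 measured signal. Without KO library 6 it was 7 miRNAs (0.804%), miR-9-5p and miR-124-3p among them. Leaving out WT library 2, WT library 3 or KO library 5 moved 0 members by that much, against 0.23%, 0.574% and 0% of all.

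**Figure D3:**
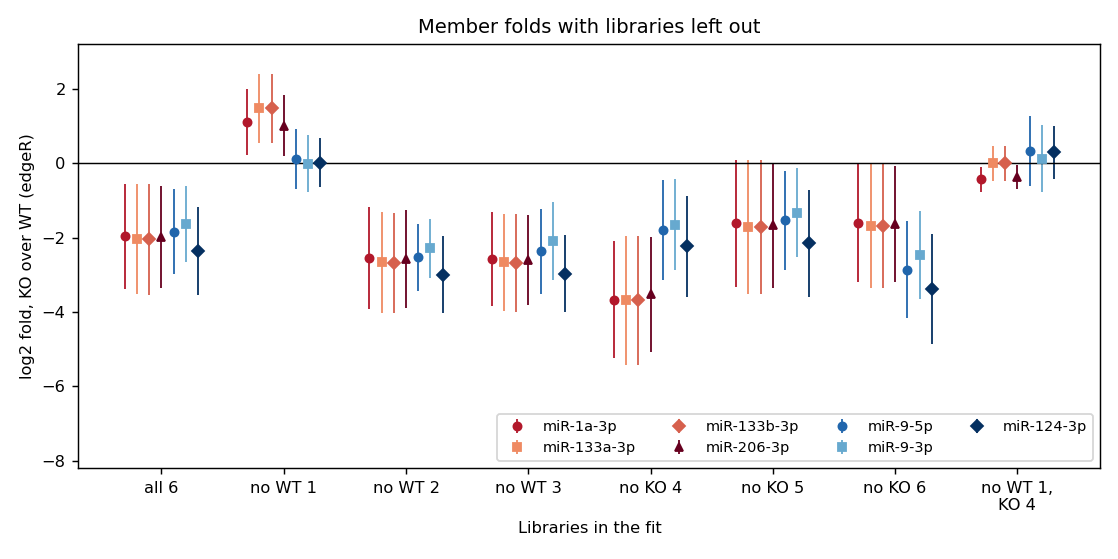
Log2 fold of KO over WT from edgeR for the 7 members with all 6 libraries, without each library in turn and without WT library 1 and KO library 4 together; bars are SE. The folds lie at -2.36 to -1.64 with all libraries, and without WT library 1 the muscle folds lie at 1.01 to 1.47.

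DESeq2, which gives no p-value where a single library is extreme for its group, gave none for 7 of its miRNAs. They were the 4 muscle members, miR-215-5p, miR-205-5p and another muscle miRNA, miR-208b-3p. Each of these 7 was highest in WT library 1.

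The members were not alone in leading WT library 1. A miRNA was said to lead a library where its CPM was at least 4 times the highest of the other 5. Of the 876 tested miRNAs, 10 led WT library 1 and 0 led any of the other 5 libraries. With no filter on low counts 23 led WT library 1 and 0 to 3 led each of the others. The 10 tested ones were 6 of the members and miR-215-5p (9.83 times), miR-205-5p (7.26), miR-135b-5p (4.94) and miR-204-5p (4.15). Among the 6 members, miR-133a-3p and miR-133b-3p are 1 measured signal. The remaining member, miR-9-3p, was just below at 3.996, and miR-10b-5p followed at 3.58. With no scaling factors 4 miRNAs led WT library 1 at 4 times, and 1 of them was a member. At 2 times all 7 members led it under that scaling too. With TMM scaling and 2 times as the limit, 19 miRNAs led WT library 1, all 7 members among them, and 0 to 5 led each of the others.

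**Figure D4:**
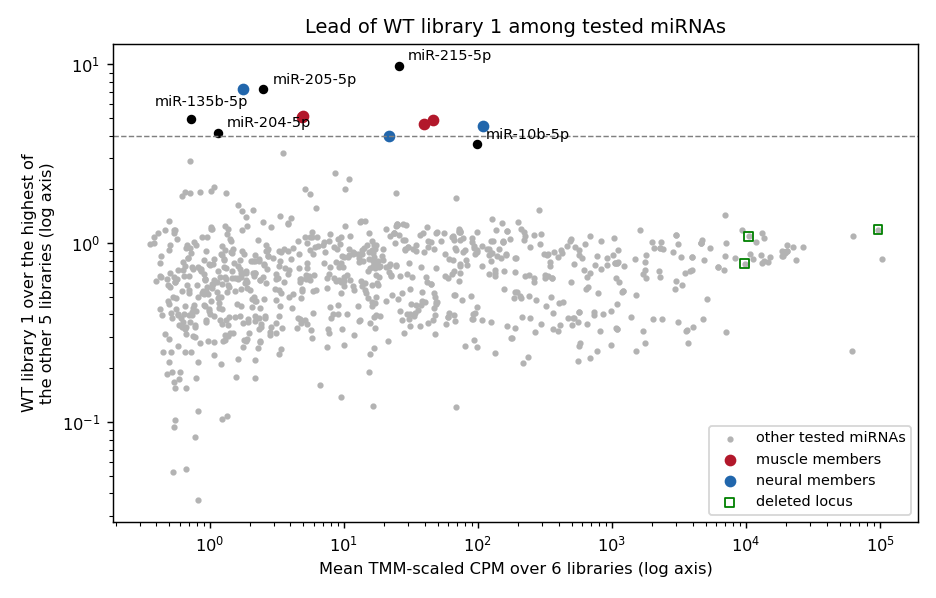
Level in WT library 1 over the highest of the other 5 libraries, against mean TMM-scaled CPM (both log axes), for the tested miRNAs; miRNAs at 0 in WT library 1 are not drawn, and the dashed line marks 4 times. The members lie between 3.996 and 7.28, with miR-215-5p above them at 9.83.

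Several of these are miRNAs of epithelia, sense organs and the body axis. miR-215-5p, known from gut and kidney and carrying the seed of miR-192-5p, gave 126.4, 2.07 and 2.95 CPM in the WT libraries, against 7.92, 12.9 and 2.26 CPM in KO. miR-205-5p, of skin and other stratified epithelia, gave 11.0, 0.663 and 0.250 CPM for WT, against 1.51, 1.22 and 0.460 CPM for KO. In both cases WT library 1 was far above the other 5 and the genotypes overlapped. The other skin miRNA of the list, miR-203-3p, moved far less, from 84.7 to 119.8 CPM over the 6 libraries.

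miR-10b-5p and miR-196a-5p come from the Hox clusters, which pattern the body axis. miR-10b-5p gave 332.2, 29.8 and 49.4 CPM in the WT libraries, against 92.9, 29.6 and 56.7 CPM in KO. miR-196a-5p gave 24.5, 3.81 and 3.10 CPM, against 9.88, 4.03 and 6.48 CPM. For both, WT library 1 was highest and KO library 4 second, as for the muscle members. Their log2 folds of KO over WT were -1.20 (SE 0.92) and -0.62 (SE 0.82; edgeR adjusted p 0.647 and 0.836). All 5 miRNAs of that list were below 0, with a median of -0.62 that became 0.27 without WT library 1. The order of libraries was not shared by all 5. miR-10a-5p was highest in WT library 3, at 857.0 CPM against 706.9 CPM in WT library 1 and 489.5 CPM in KO library 4. miR-196b-5p was highest in WT library 1 (212.8 CPM), with WT library 2 second (163.6 CPM), ahead of KO library 4 (136.8 CPM). miR-615-3p, at 0 to 40 counts, had WT library 1 highest and KO library 4 second.

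Other muscle miRNAs with very low counts were also read, named after their values were seen. miR-208a and miR-208b lie in introns of the myosin genes Myh6 (Mir208a, chr14:54949060-54949142, minus strand) and Myh7 (Mir208b, chr14:54975700-54975776, minus strand). miR-499 lies in an intron of another myosin gene, Myh7b (Mir499, chr2:155622880-155622958, plus strand). Their mature sequences, from RefSeq with the seed in capitals, show how close the first 2 are and where miR-499-5p leaves them.
miR-208a-3p: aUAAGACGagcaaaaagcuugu
miR-208b-3p: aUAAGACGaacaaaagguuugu
miR-499-5p: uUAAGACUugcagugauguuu
From the 5′ end of miR-208a-3p, the differences to miR-208b-3p are G10A, A16G and C18U.

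miR-208b-3p had 167 counts in WT library 1 (8.05 per 1000000 counts), 0 in WT libraries 2 and 3, and 1, 0 and 2 in KO libraries 4 to 6. miR-208a-3p had 37, 1 and 0 counts in WT and 15, 0 and 2 in KO, so that KO library 4 was again second. miR-133a-5p, the partner arm of miR-133a-3p, had 18 counts in WT library 1, 2 in KO library 5 and 0 in the other 4. These 3 did not pass the filter on low counts. With no filter edgeR called none of them (adjusted p 0.430 to 0.791), and DESeq2 called neither of the 2 it gave a p (adjusted p 0.942 and 0.985).

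miR-499, by contrast, was abundant in every library and did not follow the members. miR-499-5p gave 552.4, 555.4 and 409.4 CPM in the WT libraries, against 783.9, 968.1 and 724.8 CPM in KO. Its log2 fold was 0.71 (SE 0.20) and its edgeR adjusted p 0.234, so it was not called. The 3 KO values lay above the 3 WT values, where 21.8% of all tested miRNAs had groups that did not overlap. With no scaling factors miR-499-5p was among the 58 miRNAs that edgeR called higher in KO. The other arm, miR-499-3p, ran from 8.56 to 9.18 CPM for WT, against 11.0 to 24.6 CPM for KO. Its log2 fold was 0.98 (SE 0.31) and its edgeR adjusted p 0.271. Both arms were at an unadjusted p under 0.05 in edgeR, DESeq2 and limma-voom. In edgeR that was so for 96 of 873 miRNAs outside the locus. The summed level of the 5 listed miR-208 and miR-499 arms, nearly all of it miR-499-5p, was 417.9 to 573.0 CPM in WT and 736.0 to 992.7 CPM in KO.

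Of the other arms and copies of the muscle hairpins, miR-206-5p had 2 counts in all, miR-1a-1-5p 2 and miR-133c 0. miR-1b, read from the strand opposite a miR-1a hairpin, did not follow the members. miR-1b-3p was at 1.62 to 3.22 CPM over the 6 libraries, and miR-1b-5p was lowest in WT library 1, at 4.37 CPM against 5.41 to 11.4 CPM elsewhere. The log2 fold of miR-1b-5p was 0.80 (SE 0.28), and its edgeR adjusted p was 0.329, so it was not called. At an unadjusted p it was under 0.05 in edgeR, DESeq2 and limma-voom. The 3 KO values (8.20 to 11.4 CPM) lay above the 3 WT values (4.37 to 7.87 CPM), where 21.8% of all tested miRNAs had groups that did not overlap. miR-124-5p had 4, 2 and 0 counts in WT and 0, 0 and 3 in KO.

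A list of 20 further neural miRNAs, of which 19 were in the table and 14 were tested, was mixed. Of the 19, 10 were highest in WT library 1, as were 18.6% of the 873 tested miRNAs outside the locus. Some of the 10 rested on very few counts: miR-873a-5p had 1 count in all, and miR-129-1-3p had 2 in each WT library. edgeR called 0 of the 14 tested, and 0 were at an unadjusted p under 0.05, against 96 of 873 miRNAs outside the locus. DESeq2 and limma-voom also had 0 in both respects. The log2 folds of the 14 were above 0 in 5 and below in 9, with a median of -0.16 against -0.01 over all tested miRNAs. Without WT library 1 the median was 0.10, with 9 of 15 above 0. Their summed level was 5060 to 6418 CPM in WT and 6200 to 7707 CPM in KO, most of it miR-7a-5p, a miRNA also known from endocrine cells. The level of miR-7a-5p ran from 3833 to 6440 CPM and was highest in KO library 4.

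Within this list, miRNAs at different levels stood out in WT library 1, and others at similar levels did not. miR-135b-5p had 52 counts there and 0 to 15 in the others. miR-137-3p, a neuronal miRNA, had 40 counts there and 5 to 14 elsewhere, and miR-219a-2-3p, known from oligodendrocytes, had 33 there and 0, 2, 0, 0 and 0 elsewhere. These last 2, named after their values were seen, did not pass the filter on low counts, and DESeq2, which tested both, called neither (adjusted p 0.8997 for both). miR-218-5p, of motor neurons and other cells, gave 135.6 CPM in WT library 1, against 39.2 to 75.3 CPM elsewhere. By contrast miR-129-5p was at 1.10 to 1.80 CPM in all 6, and miR-383-5p was highest in WT library 3, at 0.801 CPM. Likewise miR-128-3p, a broadly neuronal miRNA, was at 429.3 to 604.1 CPM in all 6, with KO library 6 the highest.

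miRNA lists of other tissues had narrower ranges, as sums, than the muscle and neural members. The summed level of the 5 mesenchymal and smooth muscle miRNAs was 2286 to 3156 CPM in WT and 2052 to 2979 CPM in KO. That of the 5 epithelial miRNAs of the miR-200 family was 667.0 to 1288 and 541.1 to 958.7 CPM, highest in WT library 3. The 4 pancreatic and endocrine miRNAs, miR-375-3p among them, summed to 58.8 to 111.4 and 45.6 to 101.0 CPM, again highest in WT library 3. The 5 sensory organ miRNAs, with miR-183-5p and miR-204-5p, summed to 156.7 to 354.9 and 160.8 to 236.3 CPM. All 5 were highest in WT library 1, as were 18.6% of the 873 tested miRNAs outside the locus. edgeR called 0 of the 18 tested members of these 4 lists. At an unadjusted p under 0.05 it had 0 of them, against 96 of 873 miRNAs outside the locus.

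The hepatocyte miRNA miR-122-5p went the other way in WT library 1. WT libraries 1 to 3 gave 29323, 50130 and 117798 CPM and KO libraries 4 to 6 gave 37308, 42829 and 92264 CPM, lowest where the members were highest. The 2 libraries where it was highest, WT library 3 and KO library 6, were those next after WT library 1 for miR-9-5p, at 69.7 and 93.5 CPM. The erythroid miRNA miR-486a-5p gave 82223, 75223 and 43832 CPM for WT, against 56015, 69771 and 49709 CPM for KO, so miRNAs of both main fetal liver cell types were abundant in all 6. Whether cells or RNA of muscle, nervous or other tissue were in WT library 1, KO library 4 or KO library 6 was not tested.

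**Figure D5:**
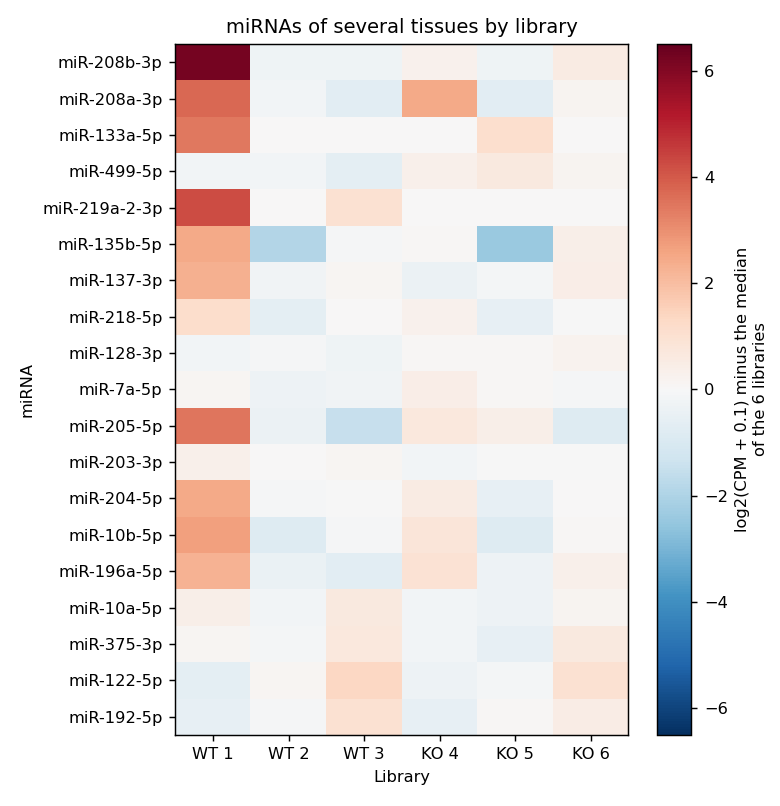
Level of 19 miRNAs of several tissues in each library, as log2(CPM + 0.1) minus the median of the 6 libraries (red above, blue below); the miRNAs were picked after their values were seen. miR-208b-3p (9.13 CPM), miR-205-5p (11.0 CPM) and miR-10b-5p (332.2 CPM) are red in WT library 1, while miR-499-5p, miR-128-3p and miR-7a-5p are pale across the row and miR-122-5p is pale blue in WT library 1.

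The miRNAs most like miR-206-3p, miR-9-5p and miR-124-3p were found by Pearson's r of log2(CPM + 1) over the 6 libraries among 867 tested miRNAs, as a description; the members and their partner arms and copies were left out of the ranking. The points share their libraries and depth, and WT library 1 weighs heavily in each r. For miR-206-3p they were miR-20a-5p (r = 0.996), miR-3966 (0.978), miR-708-3p (0.952), miR-204-5p (0.944) and miR-196a-5p (0.940). Likeness of shape was not likeness of size: miR-20a-5p, a miR-17-92 miRNA, ran only from 12023 to 15759 CPM, a 1.31-fold range against 29.2-fold for miR-206-3p.

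For miR-9-5p they were miR-488-3p (r = 0.983), miR-135b-5p (0.955), miR-10a-3p (0.953), miR-182-5p (0.947) and miR-199a-3p (0.943). miR-488-3p and miR-135b-5p stand in the neural list and the other 3 do not. For miR-124-3p they were miR-92b-3p (0.967), miR-135b-5p (0.949), miR-204-5p (0.947), miR-3091-5p (0.929) and miR-100-5p (0.912). Among the members, miR-206-3p had an r of 0.9995 with miR-1a-3p and 0.665 with miR-9-5p, and miR-9-5p an r of 0.998 with miR-9-3p and 0.907 with miR-124-3p.

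The calls outside the locus did not involve the members, whichever libraries were used. With all 6 libraries edgeR called 4 miRNAs higher in KO and 0 lower among the 873 (96 at an unadjusted p under 0.05 in either direction). Without WT library 1 it called 1 higher, miR-1224-5p, which is among the 4, and 0 lower. Without WT library 1 and KO library 4 together it again called miR-1224-5p alone. Leaving out any other single library gave 0 or 1 as well, so the smaller count was not particular to WT library 1.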

How the data were processed

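The deposited table holds raw read counts for each mature miRNA and library and, per the file headers, a percent for each, which differed from the count's share of the column total by at most 4.96e-09. Adapter trimming used cutadapt, per the submitters' processing notes. What aligned the reads, to which build and annotation, and how reads matching several miRNAs were treated is not given in the sources used here. Though the design text speaks of HITS-CLIP, the labels speak of miRNA sequencing, and the deposited counts were read as the labels have it. The KO and WT counts were compared in edgeR 4.0.16 (R 4.3.3; TMM scaling, filterByExpr, quasi-likelihood F-test), and p-values were Benjamini-Hochberg adjusted over all 876 miRNAs that passed the filter. The printed SE is approximate: it is the size of the log2 fold over the square root of F. The fit was first tested on simulated data. The alternatives were DESeq2 1.42.0, voom from limma 3.58.1, other scalings, no filter, and leaving out libraries. The members and lists were chosen with earlier results of these data known. The miRNAs named are the members, their partner arms and copies, listed miRNAs that led a library 4-fold, up to 10 with the largest lead in a library that a member led, and the 5 most like miR-206-3p, miR-9-5p and miR-124-3p; others were picked after their values were seen.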

Additional observations from a re-analysis of the deposited data

How the results depend on the processing

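The member folds kept their sign and stayed uncalled under RLE scaling, no scaling factors, the locus removed before TMM, no filter, DESeq2 (no p for 4) and limma-voom, at -2.54 to -0.74 on the log2 scale. With 1 library left out they ran from -3.67 to 1.10 for miR-1a-3p, -3.69 to 1.47 for miR-133a-3p and miR-133b-3p, -3.52 to 1.01 for miR-206-3p, -2.86 to 0.11 for miR-9-5p, -2.46 to -0.02 for miR-9-3p and -3.38 to 0.0077 for miR-124-3p, the high end always without WT library 1. Without WT library 1 and KO library 6, added after seeing the data, the muscle folds were 1.51 (miR-1a-3p), 1.89 (miR-133a-3p and miR-133b-3p) and 1.41 (miR-206-3p). In that fit the miR-9 folds were below 0, at -0.86 (SE 0.61) for miR-9-5p and -0.80 (SE 0.65) for miR-9-3p, and miR-124-3p was not tested. Without WT library 1 and KO library 4 the neural folds turned to 0.32 (miR-9-5p), 0.12 (miR-9-3p) and 0.29 (miR-124-3p). The miRNAs called higher in KO outside the locus numbered 4, but 1 with RLE scaling or with the locus removed before TMM, 58 with no scaling factors (median log2 fold 0.34), 10 with DESeq2, 0 to 1 with 1 library left out, and 1 without WT library 1 and either KO library 4 or KO library 6; those called lower numbered 0, and 2 with DESeq2. WT library 1 was led by 10 miRNAs, by 4 with no scaling factors (1 member in place of 6), 19 at 2 times, 1 at 8 times and 23 with no filter. With Spearman's rho, 1 of the 5 miRNAs most like miR-206-3p and 1 of those most like miR-124-3p stayed among the highest. The causes were not tested. The WT libraries are numbered 1 to 3 and the KO libraries 4 to 6, and the labels name no pairs of WT and KO. No paired analysis was therefore made. Depth limits miR-124-3p, miR-133a-3p and miR-133b-3p, at 5 to 28 counts in their low libraries.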

Other observations

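Some miRNAs that were also highest in WT library 1 stood in none of the lists and were named after their values were seen. miR-215-3p, the partner arm of miR-215-5p, had 89 counts in WT library 1, 0 and 4 in WT libraries 2 and 3, and 7, 15 and 2 in KO libraries 4 to 6. miR-1298-5p had 53 counts in WT library 1, 1 in KO library 6 and 0 in the other 4. Neither passed the filter on low counts, and neither was called by DESeq2 or by edgeR with no filter. For both arms of miR-215 the second highest library was KO library 5, the library in which the 3 neural members were lowest.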
